A study of Mus musculus with 8 samples.

Results

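The nuclear receptors are the family of transcription factors that bind small lipid-soluble ligands, such as steroids, retinoids, thyroid hormone, vitamin D, oxysterols and fatty acids, and act directly on DNA. The genes described were 47 members of the family named by symbol, each taken from the probes that carried that symbol in the scanner files, and all 47 had at least 1 probe, 102 probes in all. Each gene was read from the brightest of its probes, and it was tested when that probe lay well above background, by the scanner software's own test, on at least 4 of the 8 arrays. By that filter 36 of the 47 receptors were tested, among 28000 genes in all, and 11 were not. The 28000 are gene names on the array, where probes without a single RefSeq match kept the name in the scanner files.

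The samples were tumour macrophages of the mouse pancreas, isolated by flow sorting, with an array for each sample. By their labels 4 were MHCII-high and 4 MHCII-low, for the amount of MHC class II, which shows peptides to helper T cells. For both groups the mice were female, of the FvBn strain as labelled, aged 8 to 10 weeks, in which tumours had been implanted, and the genotype is given as not provided. The cells went from the sorter straight into lysis buffer, amplification was by the Sigma-WTA2 kit and the cDNA carried Cy5. The design text of the series names normal pancreas or pancreatic ductal adenocarcinoma as sources, from KPC, FLT3-CRE/LSL-YFP or wild-type mice. The 8 samples were from tumours, as above, and the labels do not say from which of these mice. Each group has one sample with each of the label numbers 20435, 20436, 20439 and 20442, and what the numbers mark is not stated. The sources do not state separate animals within a group, so the p-values reflect no more than the spread among these samples, and that spread may be technical.

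As background, most receptors of the family sit on DNA as dimers, often with a retinoid X receptor as the shared partner, and switch between corepressors and coactivators when ligand binds. In macrophages the liver X receptors and PPARs are known for controlling lipid handling, the glucocorticoid receptor for damping inflammation, the retinoid receptors for setting up macrophages of the body cavities, and the NR4A receptors for rapid induction after stimulation. The REV-ERBs are repressors that belong to the circadian clock.

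On these arrays 38756 to 42120 of 56605 probes (68.5% to 74.4%) were well above background, and no spot was saturated. Arrays correlated at r of 0.949 to 0.971 within a group and 0.908 to 0.961 between groups, across probes, which are not independent replicates. RNA went the way of the labels: the MHC class II gene H2-Ab1 was 4.01-fold higher and the class II transactivator Ciita 8.17-fold higher in the MHCII-high samples. The groups are labelled by the amount of MHC class II, so this checks the labels and is no separate result. All 12 macrophage markers were tested. Of them 1 was called, Adgre1 (the F4/80 antigen), which was lower in the MHCII-high samples by 1.69 on the log2 scale. The log2 change was below 0 for 10 of the 12, with a median of -0.35. For 5 of the 12 every MHCII-low value lay above every MHCII-high value, beside 6.85% of all genes. The summed linear signal of the list, relative to each array's 75th percentile, was 246 to 335 in the MHCII-high and 317 to 418 in the MHCII-low samples. Some markers of other cells moved with the groups. The marker lists were chosen with earlier results of these data known, so their counts are a description only. Of all genes, 2.7% were called higher and 2.25% lower. Of 15 dendritic cell markers, 13 were higher in the MHCII-high samples, led by Dpp4, Cd209a, Kmo and Batf3, and the summed level of the list, in linear signal relative to each array's 75th percentile, was 33.5 to 57.3 there against at most 15.8 in the MHCII-low samples. All 9 markers of serous-cavity macrophages, the resident macrophages of the body cavities, were lower, led by Lbp, Timd4, Cd5l and Serpinb2, with a summed level of 4.68 to 17.5 against 50.9 to 63.2. Other marker lists had 0 to 2 calls. Among monocyte markers F13a1 was lower and Plac8 higher, with a summed level of 22.4 to 33.6 against 47.3 to 53.0. Of the 8 monocyte log2 changes 5 were above 0, with a median of 0.21, so the sum and the median went opposite ways. Further calls included Fcrla higher among B cell markers, Fcer1a higher among those of neutrophils, mast cells and basophils, and Cdh1 higher among epithelial markers. None was called among T and NK cell, acinar, fibroblast or endothelial markers. The fibroblast list, without a call, still had a summed level of 36.7 to 81.3 in the MHCII-high and 52.0 to 90.6 in the MHCII-low samples. Of its 8 log2 changes 7 were below 0, with a median of -0.89. In sorted bulk samples a different mixture of cells and a different amount of RNA per cell cannot be told apart. The part of these cell types in the receptor results was not tested. The 8 arrays shared 1 slide with 2 rows, and the rows were uneven, since row 1 held 3 of the MHCII-low arrays and 1 of the others and row 2 the reverse, so values with the row as a block stand beside the results.

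Among the 36 receptors tested, 7 differed between the groups. The orphan receptor Nr4a3 and the vitamin D receptor Vdr were higher in the MHCII-high samples, and the clock repressors Nr1d1 and Nr1d2, the thyroid hormone receptor Thrb and the retinoid X receptors Rxra and Rxrg were lower. A call means a Benjamini-Hochberg adjusted p under 0.05 over all 28000 genes in limma's two-sided test. The 7 calls are 19.4% of the receptors tested, where 4.95% of all genes were called; the 2 higher are 5.56%, beside 2.7% of all genes, and the 5 lower are 13.9%, beside 2.25% of all genes. Without any adjustment 18 of the 36 had a p under 0.05 in the limma test. The share of all genes under that p is not given here, so no excess is read from this count. For 13 of the 36 (36.1%, beside 14.4% of all genes) the values of the groups did not overlap, with the MHCII-high samples above in 5 (7.57% of all genes) and below in 8 (6.85%). The median log2 change of the 36 was -0.10, beside 0.01 for all genes tested. The calls differed with the handling of the slide row. With the row as a block, 2 of the 7 calls held, Nr4a3 higher and Nr1d1 lower. Of all genes, 1.1% were then called higher and 0.564% lower, 1.66% together. Why the other calls were lost was not tested.

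**Figure D1:**
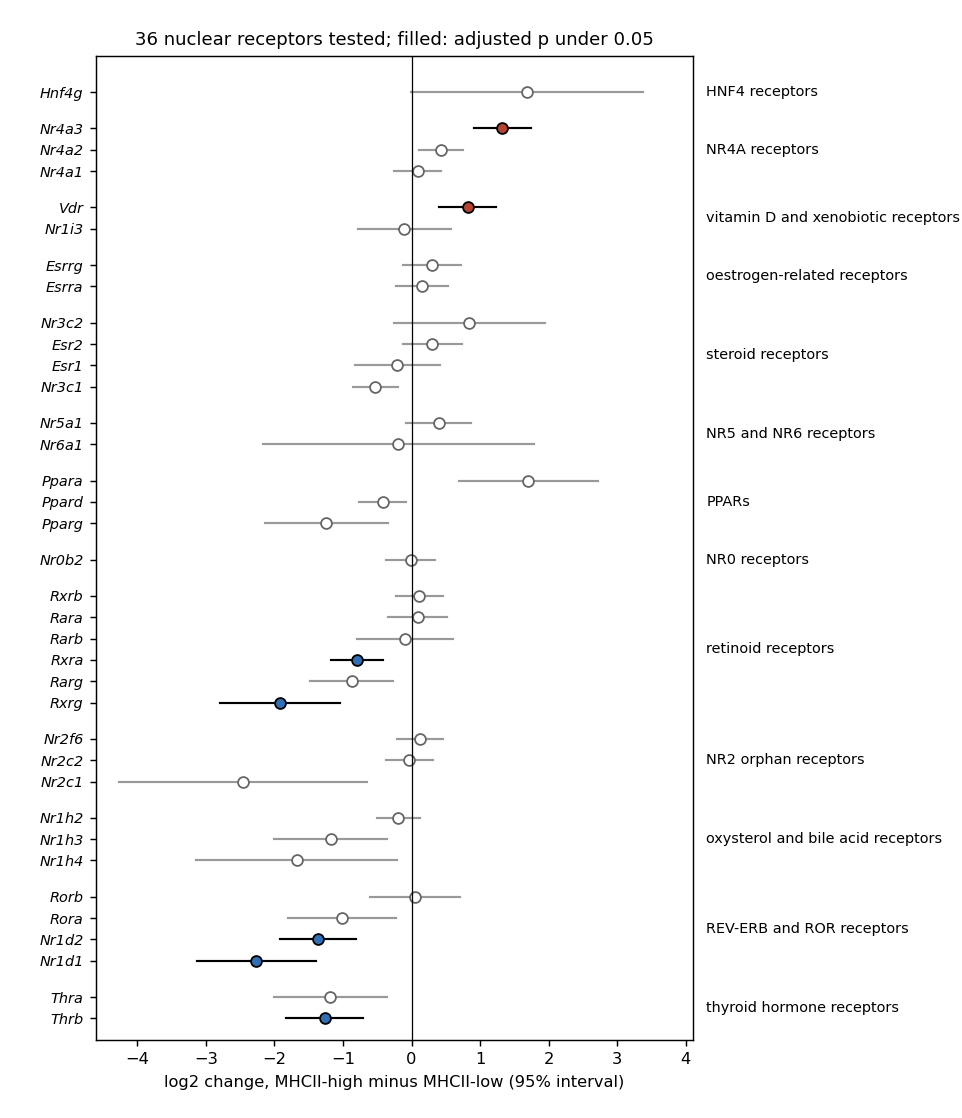
Log2 change of each of the 36 tested nuclear receptors, MHCII-high minus MHCII-low, as points with 95% intervals along the horizontal axis, grouped by role; filled points have an adjusted p under 0.05. The REV-ERB, thyroid hormone and retinoid X receptors that were called lie to the left, Nr4a3 and Vdr to the right, and the wide intervals belong to dim probes such as those of Nr2c1, Nr6a1 and Hnf4g.

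Values below are log2 signals relative to the 75th percentile of the same array, given for each group in the order of the label numbers 20435, 20436, 20439 and 20442. They are comparable between arrays for 1 probe and not between probes. A log2 change is the mean of the 4 MHCII-high samples minus the mean of the 4 MHCII-low samples, with its standard error from limma. Probe positions are on the mouse build mm9, as the scanner files give them, and no annotation of exons or UTRs on mm9 was used here.

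The REV-ERBs, which repress the clock gene Arntl and genes of lipid metabolism, were both lower, and Nr1d1 fell furthest among the 7 receptors called. Nr1d1, which encodes REV-ERB alpha (probe within chr11:98630526-98631028), read -1.98, -1.35, -2.53 and -3.00 in the MHCII-high samples and -0.16, 0.67, 0.19 and -0.48 in the MHCII-low samples. Nr1d1 had no further probe. It overlaps Thra in the RefSeq table, so where the transcripts overlap their signals cannot be told apart, as given below. Every MHCII-high sample lay below every MHCII-low sample. The level fell by 2.26 on the log2 scale (SE 0.38), which is 4.81-fold lower (95% interval 2.63 to 8.79; limma, adjusted p = 0.0157). Blocking on the slide row gave a change of -1.80 (limma, adjusted p = 0.0450), and within the rows it was -1.58 and -2.02. The call was lost without the MHCII-high sample 20439 (limma, adjusted p = 0.0543) and held in the other 7 fits that left out 1 sample.

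Nr1d2, which encodes the closely related REV-ERB beta (probe at chr14:19036568-19036627), read -1.49, -0.87, -1.31 and -1.88 in the MHCII-high samples and -0.41, -0.0030, 0.28 and 0.03 in the MHCII-low samples. Again the groups did not overlap, and the level fell by 1.36 on the log2 scale (SE 0.24; 2.57-fold lower, interval 1.75 to 3.77; limma, adjusted p = 0.0187). Both further probes of Nr1d2 were called in the same direction, at -1.91 and -1.28 (limma over all 41184 probes that passed the filter, of which 5.23% were called). The change with the row as a block was -1.21 (limma, adjusted p = 0.0840), and within the rows -0.83 and -1.59. The call did not hold without the MHCII-high sample 20439 (limma, adjusted p = 0.0566) or without the MHCII-low samples 20439 (0.0531) or 20442 (0.0509).

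The ROR receptors activate through the same DNA elements that the REV-ERBs occupy. Rora had a log2 change of -1.01 (limma, adjusted p = 0.146) and Rorb one of 0.06, and neither was called. Among 18 tested genes of the circadian clock, the transcriptional oscillator in which both receptor groups act, 1 was called: Per1, a repressor of the clock, was higher by 1.05 on the log2 scale (limma, adjusted p = 0.0448). That call was lost in 7 of the 8 fits that left out 1 sample, holding only without the MHCII-low sample 20442, at adjusted p up to 0.113, and with the row as a block (limma, adjusted p = 0.137). Arntl, the activator that the REV-ERBs repress, had a log2 change of -0.83 (limma, adjusted p = 0.103), and the groups did not overlap. Its partner Clock stood at -0.76 (limma, adjusted p = 0.0915), also with no overlap, while the output gene Dbp stood at -0.73 with overlapping groups. The median of the clock list was -0.17. For the counts of calls in this list and those below, the shares over all genes were 2.7% higher and 2.25% lower.

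**Figure D2:**
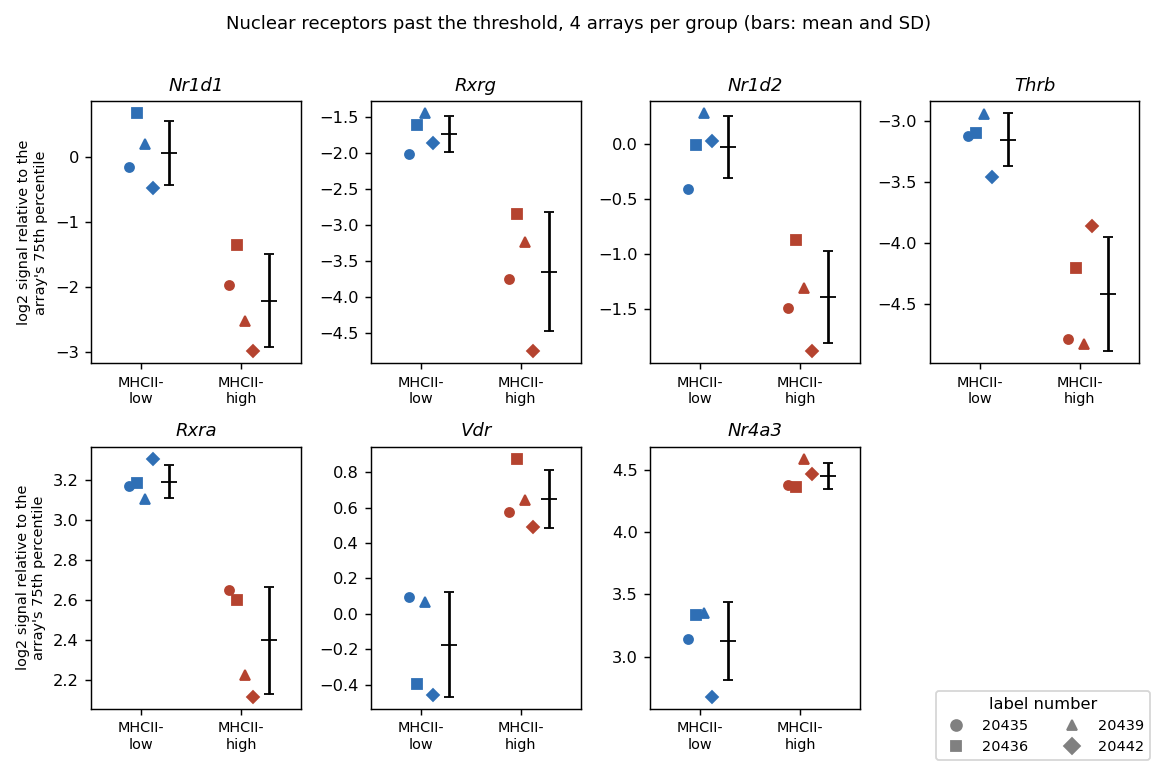
The 7 receptors past the threshold, 1 panel each, with the log2 signal relative to the array's 75th percentile on the vertical axis and the groups on the horizontal axis; symbols mark the label numbers and bars show the mean and SD of 4 samples. In every panel the groups do not overlap, with Vdr and Nr4a3 higher in the MHCII-high samples and the other 5 lower.

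The thyroid hormone receptors lie beside the REV-ERB genes in the genome on mouse chromosomes 11 and 14, and both log2 changes were below 0. In the RefSeq table Thra and Nr1d1 are neighbours that overlap, with their brightest probes 4824 bases apart on mm9. The strand handling of the labelling is not given in the sources used here, so where the transcripts overlap their signals cannot be told apart. Thrb and Nr1d2 have 1 protein-coding gene between them. Thrb (probe at chr14:18866221-18866280) read -4.79, -4.21, -4.83 and -3.86 in the MHCII-high samples and -3.12, -3.09, -2.94 and -3.46 in the MHCII-low samples. The groups did not overlap. The level fell by 1.27 on the log2 scale (SE 0.25; 2.41-fold lower, interval 1.63 to 3.56; limma, adjusted p = 0.0260). Its other probe was called too, at -0.75, but with normexp background correction the change was -0.54 and not called (limma, adjusted p = 0.0742). With the row as a block the change was -1.096 (limma, adjusted p = 0.108) and within the rows it was -1.16 and -1.04. The Thrb call was lost without the MHCII-high samples 20435 or 20439 or the MHCII-low samples 20435, 20436 or 20439, at adjusted p from 0.0552 to 0.0747.

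Thra, the widely expressed thyroid hormone receptor, was not called on its brightest probe. It read 1.86, 1.74, 1.14 and 1.25 in the MHCII-high samples and 2.49, 3.77, 2.21 and 2.27 in the MHCII-low samples, a log2 change of -1.19 (SE 0.36; limma, adjusted p = 0.109). The groups did not overlap, and the MHCII-low sample 20436 stood above the rest. Of its 3 other probes, 2 were called lower, at -1.03 (limma over probes, adjusted p = 0.0128) and -0.84 (0.0379), and the third stood at 0.11. Genes that bring thyroid hormone into the cell or change it were read from the ligand list: the transporter Slc16a10 fell by 1.84 on the log2 scale (limma, adjusted p = 0.0337). The activating deiodinase Dio2 stood at -0.53 and the inactivating deiodinase Dio3 at -0.19, neither called.

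The retinoid X receptors, the shared dimer partners of the family, were split. Rxra (probe at chr2:27618345-27618404) read 2.65, 2.60, 2.23 and 2.11 in the MHCII-high samples and 3.17, 3.19, 3.11 and 3.31 in the MHCII-low samples. The MHCII-low values were close together and all above the MHCII-high ones. The level fell by 0.80 on the log2 scale (SE 0.16; 1.74-fold lower, interval 1.34 to 2.25; limma, adjusted p = 0.0324), and its other probe fell by 1.27 (limma over probes, adjusted p = 0.0050). Rxrg (probe at chr1:169569624-169569683) read -3.75, -2.85, -3.24 and -4.76 against -2.01, -1.61, -1.45 and -1.86, with no overlap. It fell by 1.92 on the log2 scale (SE 0.38; 3.78-fold lower, interval 2.07 to 6.93; limma, adjusted p = 0.0284), and by 1.03 with normexp background correction (0.0050). Rxrb, the third member, stood at 0.11 (95% interval -0.23 to 0.45) and was not called.

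With the row as a block, Rxra stood at -0.77 (limma, adjusted p = 0.119) and Rxrg at -1.61 (0.112). Within the rows the changes were -0.55 and -0.98 for Rxra and -1.17 and -2.06 for Rxrg. With the label number as a block Rxra was not called (limma, adjusted p = 0.0943) and Rxrg was (0.0387). The Rxra call was lost in 6 of the 8 fits that left out 1 sample, holding without the MHCII-high samples 20435 or 20436, and its adjusted p ran up to 0.102. The Rxrg call was lost in 6 as well, holding without the MHCII-high samples 20436 or 20442, with adjusted p up to 0.0767.

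Rxra and Rxrg were also the only receptors whose promoter held the NBRE letters AAAGGTCA, the element that NR4A monomers bind, among 43 receptors with a promoter in the RefSeq table (GRCm38.p6). The windows, 250 bases before a gene start, are shown because both genes were called lower while Nr4a3 was called higher; capitals mark the NBRE letters. The Rxra window lies at chr2:27709042-27709291 and the Rxrg window at chr1:167618015-167618264, both on the plus strand of GRCm38.p6, and each gene has another start whose window held no match. The letters start 50 bases before the Rxra start and 90 before the Rxrg start. Counted by window, 2 of the 64 windows of these receptors hold them on either strand (3.1%), beside 1.34% of the 32851 promoters in the table. With so few matches no excess is read from this, and a link between Nr4a3 and these genes was not tested.
Rxra: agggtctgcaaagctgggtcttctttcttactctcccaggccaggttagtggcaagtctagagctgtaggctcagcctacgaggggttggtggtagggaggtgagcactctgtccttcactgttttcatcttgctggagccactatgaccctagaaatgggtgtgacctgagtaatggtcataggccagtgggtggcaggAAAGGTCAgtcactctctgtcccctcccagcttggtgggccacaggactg
Rxrg: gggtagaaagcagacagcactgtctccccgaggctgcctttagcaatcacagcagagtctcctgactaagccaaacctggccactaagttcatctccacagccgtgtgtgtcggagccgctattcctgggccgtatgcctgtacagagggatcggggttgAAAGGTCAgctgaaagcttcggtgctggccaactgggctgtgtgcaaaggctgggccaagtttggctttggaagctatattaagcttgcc
A match of letters is a description of the window and not a binding site.

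The retinoic acid receptors, which bind all-trans retinoic acid as partners of the retinoid X receptors, had no call on their brightest probes. Rara read -0.13, -0.52, -0.21 and -0.43 in the MHCII-high samples and -0.22, -0.80, -0.15 and -0.48 in the MHCII-low samples, and the groups overlapped throughout, with a log2 change of 0.09 (95% interval -0.34 to 0.51). Rarg had a log2 change of -0.87 (limma, adjusted p = 0.109), and its other probes stood at 0.0044 and -0.22. Rarb differed by probe: the brightest stood at -0.10, and another was called at -1.38 (limma over probes, adjusted p = 0.0342), reading -2.12, -1.62, -2.37 and -2.95 against -0.65, -0.69, -1.33 and -0.88.

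Of 12 tested retinoic acid target genes, 3 were lower and none higher, with a median of -0.19. Cd38, an enzyme induced by retinoic acid, fell by 1.07 (limma, adjusted p = 0.0225), and Dhrs3, a retinaldehyde reductase, fell by 0.85 (0.0247). Gata6, the transcription factor that retinoic acid maintains in cavity macrophages, fell by 3.60 (0.0471) and is also one of the serous-cavity markers above. None of the 3 kept its call with the row as a block (adjusted p 0.0814, 0.0990 and 0.169), and each was lost in 5 or 6 of the 8 fits that left out 1 sample: Cd38 and Dhrs3 without the MHCII-high samples 20439 or 20442 or the MHCII-low samples 20435, 20439 or 20442, and Gata6 in every fit but those without the MHCII-high samples 20436 or 20442. Among the genes that make or break down retinoic acid, Aldh1a1 stood at -2.01 (limma, adjusted p = 0.051), Aldh1a2 at 1.17 and Cyp26a1 at -3.61 (0.058), and none of these was called. Leaving out 1 sample brought in Aldh1a1 without the MHCII-low sample 20435 (limma, adjusted p = 0.0294) and Cyp26a1 without the MHCII-high samples 20435 (0.0377) or 20436 (0.0448). Cyp26b1, which also breaks down retinoic acid, stood at 1.34 and was called higher, at 1.93, without the MHCII-high sample 20435 (limma, adjusted p = 0.0140).

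The NR4A receptors, which have no known physiological ligand and are controlled through their own rapid transcription, lay on the other side. Nr4a3, which encodes NOR1 (probe at chr4:48064521-48064580), read 4.38, 4.37, 4.59 and 4.47 in the MHCII-high samples and 3.14, 3.33, 3.35 and 2.68 in the MHCII-low samples. The MHCII-high values lay within a narrow band above all MHCII-low values. The level was higher by 1.33 on the log2 scale (SE 0.18; 2.51-fold, interval 1.88 to 3.33; limma, adjusted p = 0.0072). The change was 1.45 with the row as a block (limma, adjusted p = 0.0242), and within the rows 1.09 and 1.80. This was the one receptor call that held in all 8 fits that left out 1 sample, with adjusted p from 0.0125 to 0.0327. Of its other probes, 1 was called at 1.71 (limma over probes, adjusted p = 0.0474) and 1 stood at 0.74 (0.208).

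Nr4a2, which encodes NURR1, read 4.62, 4.59, 4.64 and 4.71 in the MHCII-high samples and 4.26, 4.20, 4.41 and 3.98 in the MHCII-low samples. The groups did not overlap, and the log2 change of 0.43 (SE 0.14) was not called (limma, adjusted p = 0.126), while its other probe was, at 1.05 (limma over probes, adjusted p = 0.0477). Nr4a1, which encodes NUR77, read 3.55, 3.18, 3.32 and 3.03 against 3.20, 3.20, 3.12 and 3.21. Here the groups overlapped, and the change of 0.09 had a 95% interval from -0.25 to 0.43. The interval of Nr4a1 ended below that of Nr4a3, which began at 0.91, and the difference between these genes was not tested.

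The promoters of the 3 NR4A genes are shown because Nr4a3 was called and the brightest probes of Nr4a1 and Nr4a2 were not, while the 3 starts share a feature. Each window of 250 bases holds the letters TGACG, the core of the cAMP response element, or their complement CGTCA, at 4 places, set in capitals; 17.8% of the 32851 promoters hold them at least once and 0.137% at 4 places or more. The full element TGACGTCA, which contains those letters and is held by 1.55% of promoters, was found in none of the 3. The windows lie at chr15:101266596-101266845 for Nr4a1 and chr4:48045055-48045304 for Nr4a3, on the plus strand, and at chr2:57124004-57124253 for Nr4a2, on the minus strand of GRCm38.p6.
Nr4a1: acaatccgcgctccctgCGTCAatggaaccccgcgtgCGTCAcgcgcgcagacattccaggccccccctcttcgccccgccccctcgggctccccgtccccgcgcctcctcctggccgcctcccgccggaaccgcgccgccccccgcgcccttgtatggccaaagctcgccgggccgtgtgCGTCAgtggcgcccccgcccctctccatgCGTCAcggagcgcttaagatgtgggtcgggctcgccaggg
Nr4a2: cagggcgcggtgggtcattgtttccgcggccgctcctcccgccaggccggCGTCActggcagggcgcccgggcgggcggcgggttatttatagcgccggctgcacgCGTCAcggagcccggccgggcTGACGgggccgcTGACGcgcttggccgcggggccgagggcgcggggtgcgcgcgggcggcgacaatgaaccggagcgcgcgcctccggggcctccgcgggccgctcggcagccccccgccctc
Nr4a3: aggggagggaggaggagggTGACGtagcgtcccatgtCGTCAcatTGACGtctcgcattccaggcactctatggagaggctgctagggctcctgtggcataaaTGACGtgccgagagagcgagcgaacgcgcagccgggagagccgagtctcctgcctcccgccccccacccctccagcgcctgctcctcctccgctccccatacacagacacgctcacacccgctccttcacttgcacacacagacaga
The 43 receptors have 64 windows in the table, one for each listed start. The letters TGACG were in 13 of the 64 (20.3%), the E-box CACGTG in 5 (7.81%, beside 6.02% of all promoters), the D-box TTATGNAA in 1 (1.56%, beside 3.07%) and the core TAGGTCA of the ROR element in none (beside 2.23%), each searched on both strands. In the Nr1d1 and Nr1d2 windows none of these letters was found, which says nothing about the factors that bind them elsewhere.

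Immediate early genes, the rapidly induced class to which the NR4A genes belong, went both ways. Of 20 tested, 2 were higher and 1 lower, with a median of 0.02. Btg2, an antiproliferative gene, rose by 0.79 (limma, adjusted p = 0.0337) and Maff, a small Maf factor, by 0.78 (0.0473), while Klf2, a factor of quiescent cells, fell by 1.25 (0.0215). With the row as a block these were at adjusted p of 0.118, 0.146 and 0.0895, and leaving out 1 sample ended the calls of Btg2 in 7 of 8 fits (all but that without the MHCII-low sample 20442), of Maff in 7 (all but that without the MHCII-high sample 20442) and of Klf2 in 4 (the MHCII-high samples 20439 and 20442, the MHCII-low samples 20435 and 20442).

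Vdr, the receptor for calcitriol, the active form of vitamin D (probe at chr15:97685136-97685195), read 0.58, 0.88, 0.64 and 0.49 in the MHCII-high samples and 0.09, -0.40, 0.07 and -0.46 in the MHCII-low samples. The groups did not overlap. The level was higher by 0.82 on the log2 scale (SE 0.18; 1.77-fold, interval 1.32 to 2.36; limma, adjusted p = 0.0420), and its other probe stood at 0.82 with overlapping groups (limma over probes, adjusted p = 0.114). The call was lost whichever of the 8 samples was left out, at adjusted p from 0.0611 to 0.112. The change was 0.99 with the row as a block (limma, adjusted p = 0.0520), and within the rows 0.95 and 1.03. The related xenobiotic receptor Nr1i3 stood at -0.11. Cyp27a1, a sterol hydroxylase that makes 27-hydroxycholesterol and can also hydroxylate vitamin D, rose by 1.53 (limma, adjusted p = 0.0039), and Cyp2r1, the main vitamin D 25-hydroxylase, stood at 0.08.

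The liver X receptors, sensors of oxysterols, had no call. Nr1h3, which encodes LXR alpha, read 0.58, 0.50, 0.31 and 0.66 in the MHCII-high samples and 0.64, 1.72, 1.84 and 2.57 in the MHCII-low samples. The MHCII-low sample 20435 lay among the MHCII-high values and the other 3 above them. The log2 change was -1.18 (SE 0.36; limma, adjusted p = 0.110), and the other probe gave -1.18 as well. Without the MHCII-low sample 20435 the change was -1.53 and was called (limma, adjusted p = 0.0244). Nr1h2, which encodes LXR beta, stood at -0.19 on its brightest probe and at 0.11 and 1.38 on the others, none called. The bile acid receptor Nr1h4 had a log2 change of -1.68 (limma, adjusted p = 0.193), on a probe well above background in 1 of 4 MHCII-high and 4 of 4 MHCII-low samples. Without the MHCII-high sample 20439 it was called, at -2.31 (limma, adjusted p = 0.0409), while normexp background correction gave -0.35 and its other probe -0.31 (limma over probes, adjusted p = 0.570), neither called.

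Of 22 LXR target genes, 3 were lower and 1 higher, with a median of -0.28. Apoc1, an apolipoprotein, fell by 2.36 (limma, adjusted p = 0.0326), Smpdl3a, a phosphodiesterase, by 1.09 (0.0099) and Abca1, the cholesterol exporter, by 0.70 (0.0334), while Fasn, fatty acid synthase, rose by 0.83 (0.0401). Of these, Smpdl3a held in all 8 fits that left out 1 sample; Apoc1 was lost in 5 (the MHCII-high samples 20439 and 20442, the MHCII-low samples 20436, 20439 and 20442), and Abca1 and Fasn in 7, all but that without the MHCII-low sample 20436. None of the 4 was called with the row as a block, at adjusted p from 0.0537 to 0.121. The enzymes that make the ligands moved apart: Cyp27a1 was higher, as given above, and Ch25h, which makes 25-hydroxycholesterol, fell by 1.15 (limma, adjusted p = 0.0121), from 2.06, 2.25, 1.86 and 2.11 in the MHCII-low samples to 1.103, 1.18, 0.84 and 0.54 in the MHCII-high samples. Cyp7b1, which breaks oxysterols down, stood at 0.81 and was not called.

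**Figure D3:**
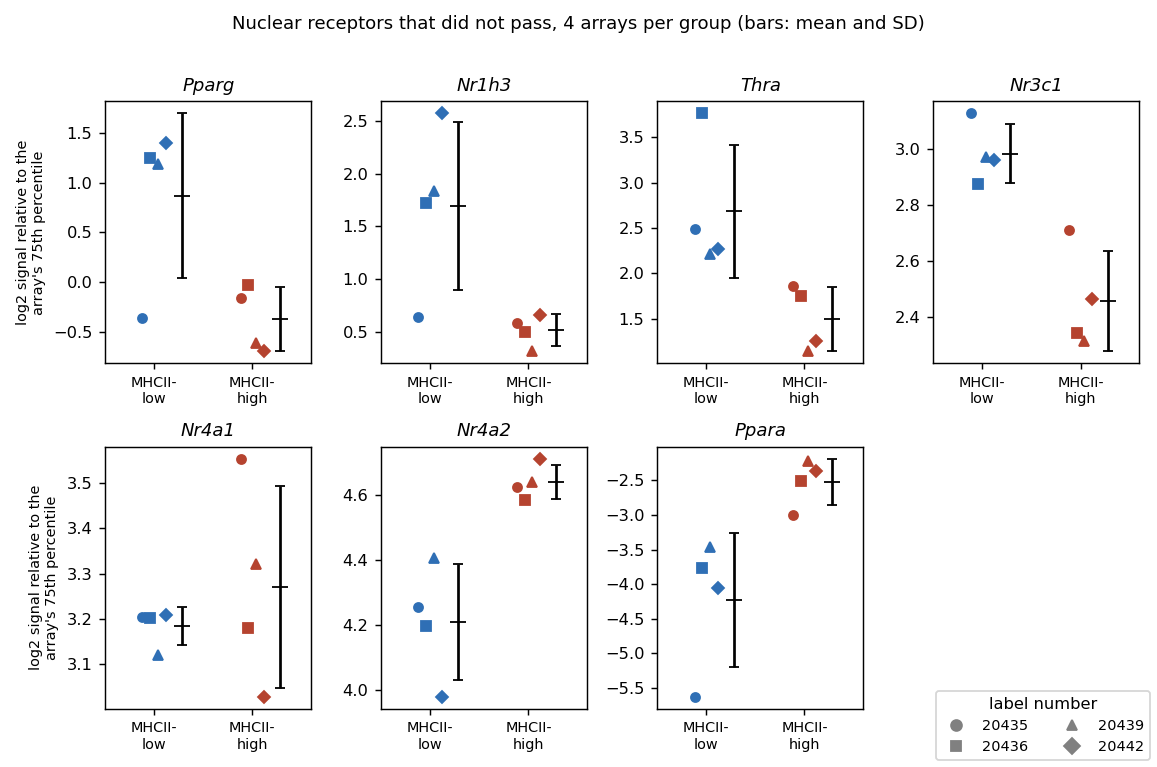
The 7 receptors shown here that did not pass the threshold, 1 panel each, with the log2 signal relative to the array's 75th percentile on the vertical axis and the groups on the horizontal axis; symbols mark the label numbers and bars show the mean and SD of 4 samples. For Pparg and Nr1h3 the MHCII-low sample 20435 lies among the MHCII-high values, for Ppara it lies far below the other samples, and for Thra, Nr3c1, Nr4a2 and Ppara the groups do not overlap.

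The PPARs, receptors for fatty acids and their derivatives, had no call either. Pparg, the regulator of lipid storage that also shapes macrophage programmes, read -0.16, -0.03, -0.61 and -0.69 in the MHCII-high samples and -0.36, 1.25, 1.19 and 1.41 in the MHCII-low samples. As with Nr1h3, the MHCII-low sample 20435 lay among the MHCII-high values. The log2 change was -1.25 (SE 0.39; limma, adjusted p = 0.119), and without that sample -1.66 (limma, adjusted p = 0.0138). Ppard read -1.11, -1.43, -1.44 and -1.59 against -0.85, -0.94, -0.99 and -1.11, so that the groups met at -1.11, and the change of -0.42 was not called (limma, adjusted p = 0.165). Ppara, the receptor that drives fatty acid oxidation in liver, lay on the other side of 0. It read -3.00, -2.51, -2.22 and -2.36 in the MHCII-high samples and -5.63, -3.77, -3.46 and -4.06 in the MHCII-low samples, with no overlap. Its change of 1.71 (SE 0.45) missed the threshold (limma, adjusted p = 0.0695), passed it without the MHCII-low sample 20435 (0.0482), and had an adjusted p of 0.194 with the row as a block; the probe was well above background in 4 MHCII-high and 3 MHCII-low samples.

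Among 21 tested PPAR target genes, 2 were lower and 2 higher. Of the 21 log2 changes 19 were below 0, beside 13789 of all 28000 genes, with a median of -0.36. Fabp4, a fatty acid carrier, fell by 2.20 (limma, adjusted p = 0.0123), from 1.89, 2.33, 1.96 and 2.25 in the MHCII-low samples to 0.38, 0.68, -0.50 and -0.92 in the MHCII-high samples. Acadl, a dehydrogenase of fatty acid oxidation, fell by 0.79 (0.0381). The lipase Lipe rose by 1.08 (0.0181) and the carnitine carrier Slc25a20 by 0.87 (0.0497). The Fabp4 call held in all 8 fits that left out 1 sample, and Lipe was lost without the MHCII-high sample 20439 (0.0621) or the MHCII-low sample 20435 (0.0512). Acadl was lost in all fits but that without the MHCII-high sample 20436, and Slc25a20 in all but that without the MHCII-high sample 20435. With the row as a block Fabp4 was at adjusted p = 0.0614, and the other 3 lay between 0.0802 and 0.140. Alox15, a lipoxygenase whose products bind PPARs, fell by 3.18 (limma, adjusted p = 0.0044): it read 0.72, 2.10, 0.70 and 0.18 in the MHCII-high samples and 3.90, 4.42, 4.01 and 4.09 in the MHCII-low samples, and was called with the row as a block too (0.0188).

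Among the steroid receptors, Nr3c1, the glucocorticoid receptor, read 2.71, 2.34, 2.31 and 2.46 in the MHCII-high samples and 3.13, 2.88, 2.97 and 2.96 in the MHCII-low samples. The groups did not overlap. On this probe the change of -0.53 (SE 0.14) missed the threshold (limma, adjusted p = 0.0802), and on its other probe the receptor fell by 0.90 (limma over probes, adjusted p = 0.0078), from 1.64, 1.53, 1.49 and 1.55 to 0.57, 0.68, 0.66 and 0.71. The mineralocorticoid receptor Nr3c2 differed in sign between probes. Its brightest probe stood at 0.84 with overlapping groups, and another, well above background in none of the MHCII-high and all 4 MHCII-low samples, was called in the other direction (limma over probes, adjusted p = 0.0180) and gives only a bound, at least 1.75-fold lower in the MHCII-high samples. That bound sets the mean of the MHCII-low samples against the lowest signal that counts as well above background on each MHCII-high array, or the probe's own where higher. The oestrogen receptors Esr1 and Esr2 stood at -0.21 and 0.30, and neither was called.

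Of 19 glucocorticoid target genes, 2 were higher and none lower, although the median was -0.30. Of the 19 log2 changes 14 lay below 0, beside 13789 of all 28000 genes. Il1r2, the decoy receptor for interleukin 1, rose by 0.75 (limma, adjusted p = 0.0216), and Per1, given above among the clock genes, is on this list too. Il1r2 was lost without the MHCII-high sample 20439 or the MHCII-low samples 20435 or 20442 (adjusted p from 0.0534 to 0.0699) and with the row as a block (0.0944). The scavenger receptor Cd163 stood at -1.80 (0.062) and the leucine zipper gene Tsc22d3 at -0.54, and neither was called, though Cd163 passed without the MHCII-high sample 20436 (0.0398). Hsd11b1, the enzyme that regenerates active glucocorticoid inside cells, fell by 1.24 (limma, adjusted p = 0.0075): it read -1.996, -2.09, -2.40 and -1.73 in the MHCII-high samples and -0.67, -0.76, -0.85 and -0.96 in the MHCII-low samples. It was called with the row as a block (0.0408) and in all 8 fits that left out 1 sample.

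In all, 2 were higher and 5 lower among 27 tested genes that make, move or remove receptor ligands, with a median of -0.19. Of these 7, Cyp27a1, Alox15 and Hsd11b1 were called with the row as a block, and together with Ch25h they held in all 8 fits that left out 1 sample. Slc16a10 was lost in 6 (all but those without the MHCII-high samples 20436 or 20442). Among 30 coregulators, the corepressors and coactivators that the receptors recruit, 1 was called. Hr, the corepressor hairless, which binds thyroid hormone, vitamin D and ROR receptors, rose by 1.58 (limma, adjusted p = 0.0362), and read -0.998, -1.81, -1.45 and -1.30 against -2.56, -3.75, -3.29 and -2.28. It was lost with the row as a block (0.115) and in 6 of the 8 fits that left out 1 sample, holding without the MHCII-high sample 20436 or the MHCII-low sample 20442. The median of the coregulators was -0.05.

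**Figure D4:**
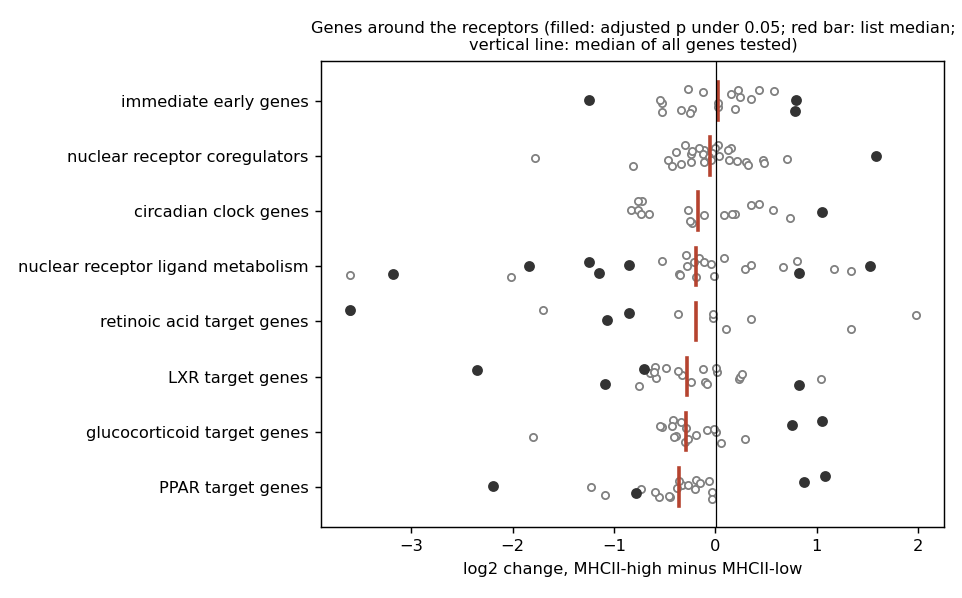
Log2 change, MHCII-high minus MHCII-low, of every tested gene in 8 lists around the receptors, 1 point a gene, with filled points past the adjusted threshold; red bars mark each list's median and the vertical line the median of all genes tested. The list medians run from -0.36 for PPAR target genes to 0.02 for immediate early genes, and calls lie on both sides in 4 of the 8 lists.

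The orphan receptors of the NR2, NR5 and NR6 groups, the oestrogen-related receptors and the HNF4 receptors had no call. Nr2c1, a repressor that binds direct repeats, stood at -2.45 (limma, adjusted p = 0.126): the groups did not overlap, and the MHCII-high sample 20442, at -7.57, was not well above background. Without that sample it was called, at -1.55 (limma, adjusted p = 0.0261), and with normexp background correction too, at -0.95 (0.0085), while the other of its probes that passed the filter stood at -0.41 (limma over probes, adjusted p = 0.163). Its relative Nr2c2 stood at -0.03 and Nr2f6 at 0.12. Hnf4g stood at 1.68 (limma, adjusted p = 0.257) with no overlap, and 3 of 4 MHCII-low samples were well above background. The MHCII-low sample 20442 read -7.21, and the change was 0.84 without it (limma, adjusted p = 0.117) and 0.57 with normexp background correction. Nr5a1 stood at 0.40, Nr6a1 at -0.20, Esrra at 0.15 and Esrrg at 0.30. Nr0b2, which lacks a DNA-binding domain and blocks other receptors, stood at -0.01 with a 95% interval from -0.37 to 0.34.

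The 11 receptors under the filter give only a limit on what these arrays could see. The brightest probe of Nr1i2, the pregnane X receptor, was well above background in 2 MHCII-high samples and 1 MHCII-low sample, that of Nr2e1 in 1 MHCII-high sample, and those of Esrrb and Nr2f1 in 1 MHCII-low sample each. The brightest probes of Hnf4a, Nr0b1, Nr1h5, Nr2e3, Nr2f2, Nr5a2 and the progesterone receptor Pgr were not well above background on any array. For these no direction was read.

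The several probes of a receptor did not always give the same answer. Of the 102 probes, 72 passed the filter and 18 were called, 25.0% beside 5.23% of all probes. Of these, 4 were higher and 14 lower, where 2.8% and 2.43% of all probes were. For 24 receptors at least 2 probes passed; in 16 of them all probes had the same sign and in 8 they did not. The 7 receptors called on their brightest probe had 7 further probes past the filter, all 7 of the same sign and 5 of them called. Nr3c1, Thra, Rarb, Nr4a2 and Nr3c2 were called on a further probe and not on the brightest.

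**Figure D5:**
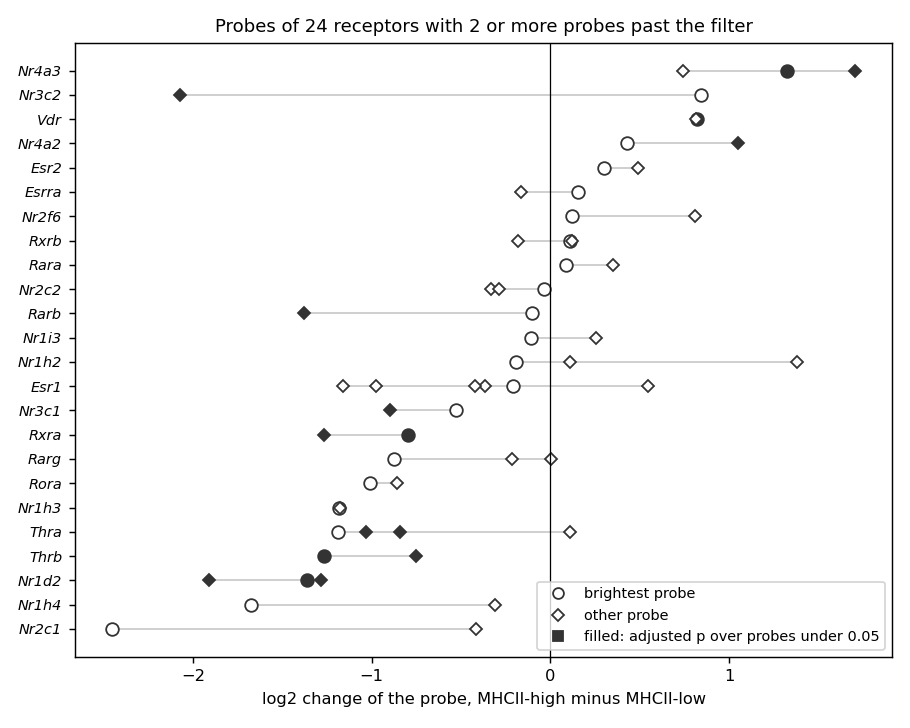
Log2 change of each probe, MHCII-high minus MHCII-low, for the 24 receptors with 2 or more probes past the filter; circles are the brightest probes, diamonds the others, and filled symbols have an adjusted p under 0.05 over all probes. The probes of Vdr and Nr1h3 nearly coincide, and those of Nr3c2, Nr1h2 and Esr1 lie on both sides of 0.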

How the data were processed

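Total RNA of 8 sorted samples, 4 MHCII-high and 4 MHCII-low, was hybridised to 1-colour Agilent arrays. Per the file headers, the deposited scanner files hold the processed intensity of each spot, linear and already background-subtracted. The submitters' processing notes name Agilent Feature Extraction 11.5.1.1. The deposited series table holds log2 values, and its making is not given in the sources used here; its columns correlated at r of 0.998 or higher with their own arrays and had medians of 9.38, so it was used only as an alternative. How the arrays were made can affect values in 1 way that the files show: dim spots carry surrogate signals, so changes of probes near background are uncertain.

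Control spots (3671 of 62976 per array) and 67 to 160 outlier spots per array were left out, and repeat spots of a probe averaged. Log2 signals were taken relative to the 75th percentile of the array. The test was that of limma 3.58.1 (lmFit, eBayes), run in R 4.3.3 with no covariate, with Benjamini-Hochberg adjustment over all 28000 genes and a threshold of 0.05, two-sided. The procedure was tested on simulated data, and as the outcome is not given here, nothing is read from it. Genes were named through RefSeq, assembly GRCm38.p6 (32994 probes matched by their main identifier, 895 by another, 489 by an older symbol). A further 9462 probes were matched by the symbol in the files, and 12765 had no single match and kept the name in the files. The 28000 genes tested can thus include names without a RefSeq match. For all 102 receptor probes the RefSeq name was the one in the files.

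The receptors, the gene lists around them and the marker lists were chosen with earlier results of these data known. Receptors past the threshold, and Pparg, Ppard, Nr1h3, Rara, Nr3c1 and Nr4a1, were given with all 8 values, the other tested receptors with their change, and those under the filter with the number of arrays above background. From each list, members past the threshold were named, up to the 4 with the smallest p; other list members, and the further receptors and probes shown with all values, were named after their values were seen. A few list members are counted but not reported here by name. The alternatives were normexp background correction (offset 50), 3 other scalings, the deposited table, 2 other filters, the mean of a gene's probes, the names in the files, the slide row and the label number as blocks, a mean-variance trend with robust estimation, outlier spots kept, and each sample left out in turn. Intervals cover 95%. The number of arrays limits the precision. The closest pair of arrays correlated at r = 0.978, so no array was a copy of another.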

Additional observations from a re-analysis of the deposited data

Results flagged for a closer look

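In 36 receptors the 4 values of each group, 72 groups in all, were searched for a single sample far from the other 3 by Dixon's test, which sets the gap against the range. Chance gives about 1 in 20 such groups and 5 were found. In the MHCII-low group Pparg stood at -0.36 in sample 20435, and at 1.19 to 1.41 in the others. Nr4a1 stood at 3.12 in the MHCII-low sample 20439, with the others between 3.20 and 3.21, so that this gap is small in size. For 3 groups the lone value was not well above background on its array: Nr2c1 at -7.57 in the MHCII-high sample 20442, Nr6a1 at -6.01 in the MHCII-high sample 20439, and Nr6a1 at -7.22 in the MHCII-low sample 20442.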

How the results depend on the processing

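Nr4a3 was called higher under all alternatives run, and Nr1d1 was called lower under all but the fit without the MHCII-high sample 20439. Receptors called higher numbered 2, and 1 with array median scaling, with no filter on dim probes and under a block on the slide row, where Vdr was lost, and 4 with the mean-variance trend, where Nr4a2 and Ppara were added; normexp gave 3, with Ppara added. Receptors called lower numbered 5, and 6 with normexp (Nr2c1 and Thra added, Thrb lost), with the mean of probes and with the trend (Nr3c1 added in both), and 1 under the row block, where 307 genes were called higher and 158 lower among all genes, against 755 and 630. The trend raised the count of lower genes to 981. Leaving out 1 sample gave 309 to 656 genes higher and 247 to 507 lower, and 1 to 2 receptors higher and 1 to 5 lower.

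The label numbers were checked as pairs. Samples of the same number correlated in their deviations from the group means at r of 0.187, 0.128, 0.212 and 0.083. Between the groups, samples of different numbers reached at most 0.073, so each sample correlated best with its own number. The numbers were taken as pairs only if every value was over 0.1, which was not so. A pairing was therefore neither established nor excluded, and the main test used none. With the label number as a replicate block 481 genes were higher and 329 lower, and the receptors called were Nr4a3, Ppara, Nr1d1, Nr1d2 and Rxrg, so 3 were lower; Vdr, Thrb and Rxra were not called (limma, adjusted p = 0.103, 0.0909 and 0.0943).

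Some changes switched sign, none of them called. Nr0b2 stood at 0.000644 with normexp, 0.0023 with scaling on detected probes and -0.0996 to 0.069 without 1 sample. With the mean of probes Esrra stood at -0.0042, Nr1h2 at 0.43, Nr1i3 at 0.072 and Nr3c2 at -0.61. With the row as a block Nr1i3 stood at 0.023 and Nr6a1 at 0.87. Rorb stood at -0.022 with array median scaling and between -0.22 and 0.24 without 1 sample. The other ranges over the fits without 1 sample were -0.11 to 0.056 for Nr2c2, -1.11 to 0.24 for Nr6a1, -0.32 to 0.14 for Nr1i3, -0.042 to 0.18 for Rara, -0.31 to 0.15 for Rarb, -0.34 to 0.030 for Esr1 and -0.0070 to 0.17 for Nr4a1. The cause of these changes was not tested. Dim probes, such as those of Nr2c1, Nr6a1, Nr1h4 and Hnf4g, limit what can be read from the receptors near background.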
